A study of Danio rerio with 20 samples.

Results

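The 66 genes described here are those whose RNA was highest in every library of amacrine and horizontal cells sorted from the zebrafish retina at 42 hours post fertilization. They were chosen from the read counts themselves. A gene qualified when its lowest value in the 5 amacrine and horizontal libraries exceeded its highest value in the other 15 libraries and its mean in the 5 was at least 5 CPM (counts divided by the library's total over Ensembl genes and multiplied by 1e+06). Of 32520 Ensembl genes, 8262 reached that mean, 72 (0.871% of the 8262) met both conditions, and 66 remained after 12 well known amacrine and horizontal cell genes were set aside by name, 6 of which had qualified. The difference between amacrine and horizontal cells and the other populations is therefore what selected these genes, and it is given as a description with no test.

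The study measured polyadenylated RNA in 4 populations with 5 libraries each. All embryos carried the same 3 transgenes. In ath5:gap-RFP, regulatory DNA of ath5 (now atoh7) drives a red membrane protein, crx:gap-CFP does the same for crx in cyan, and in ptf1a:gal4,UAS:gap-YFP the activator Gal4 is made under ptf1a control and switches on a yellow membrane protein. Cells were sorted by colour into amacrine and horizontal cells (ath5 and ptf1a reporters on, crx off), retinal ganglion cells (ath5 on, the other two off), photoreceptors (ath5 and crx on, ptf1a off) and progenitors (all 3 off). Each library came from 500 sorted cells, with 25 pooled retinas given in its labels. Whether libraries with the same replicate number share retinas is not stated. No treatment or mutation separates the groups, and all retinas are of one age.

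Amacrine and horizontal cells are the inhibitory interneurons of the retina. Amacrine cells shape the signals passing from bipolar cells to ganglion cells in the inner plexiform layer, and horizontal cells act on photoreceptor terminals in the outer plexiform layer. Ptf1a, a basic helix-loop-helix factor, commits newly born neurons to both fates, and AP-2 factors encoded by tfap2 genes act after it. At 42 hours post fertilization these neurons have recently left the cell cycle and are migrating, extending neurites and starting to make the machinery of synapses.

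Known genes followed the labels in part. The AP-2 gene tfap2a, which met the rule and was set aside by name, measured 355, 764, 487, 488 and 778 CPM in replicates 1 to 5. It reached at most 25.0 CPM in any other library. The inhibitory transmitter genes were less even. The glutamate decarboxylase gene gad2 measured 0.0324, 20.3, 54.5, 21 and 57.3 CPM, and the vesicular transporter slc32a1 measured 1.98, 154, 94, 28 and 60 CPM, so replicate 1 had little or none of either. The RNA of ptf1a itself did not set the population apart, with 192, 108, 281, 235 and 56.8 CPM in amacrine and horizontal libraries and 247, 259, 158, 121 and 170.2 CPM in retinal ganglion libraries. The RNA of crx, whose reporter was off in the sort, measured 296, 619.9, 482, 629.7 and 685 CPM, against 320.4 to 452.8 CPM in retinal ganglion, 850.5 to 2126 in photoreceptor and 19.4 to 99.1 in progenitor libraries. Summed over 16 marker genes of amacrine and horizontal cells, levels ran from 3319 to 4725 CPM in the amacrine and horizontal libraries, from 1542 to 2269 in retinal ganglion, from 369.6 to 519.8 in photoreceptor and from 749.8 to 1099 in progenitor libraries. Of these 16, 6 met the rule (tfap2a, tfap2b, tfap2c, tfap2e, barhl2 and lhx9). The rule fixed their excess, so the sum is a description and no independent check of the labels.

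Library totals ran from 21.2 to 30.8 M counts (M, 1e+06). Amacrine and horizontal replicate 1 stood apart from the rest of its group. It had 7031 genes with at least 10 counts, against 8822 to 12004 in replicates 2 to 5, and it held haemoglobin RNA (hbae1.1 at 1428 CPM, against at most 0.7 in the other 4). Among all genes averaging at least 5 CPM in the population, it was the lowest of the 5 libraries for 47.9%, and among the 66 genes for 17. Without it, 135 genes met the rule, 65 of the 66 among them. Markers of other retinal neurons were present too. The sum of 19 retinal ganglion cell markers ran from 4269 to 7549 CPM in amacrine and horizontal cells and from 3536 to 8506 in retinal ganglion cells, and the sum of 14 bipolar cell markers from 616.7 to 2183 CPM against at most 794.3 in any other library. Most of the latter was vsx1, a bipolar cell homeobox gene, with 611, 1469.5, 792, 1212 and 1893 CPM. In these 5 libraries, 7 of the 14 bipolar markers stayed under 1 CPM. The ganglion cell list includes atoh7, whose reporter was on in this sort, at 846 to 2917 CPM here. Whether ganglion or bipolar cells were in the sort, and their part in the values below, was not tested. Progenitor libraries also held markers of other cells. Mesenchyme and endothelium markers summed to 164.5 to 337.3 CPM there, against at most 10.9 CPM elsewhere. Pigment epithelium and blood markers reached 477.8 and 6372 CPM. Their part was not tested. Progenitor markers summed to 15205 to 18471 CPM there and 14519 to 18157 CPM in amacrine and horizontal libraries. They summed to 14500 to 23747 CPM in retinal ganglion and 24847 to 47246 CPM in photoreceptor libraries. The 20 markers were also tested singly with edgeR, at an adjusted p under 0.05. Set against progenitor libraries, amacrine and horizontal libraries had 10 of them lower and 3 higher, with a median log2 fold change of -0.83. Set against photoreceptor libraries, they had 6 lower and 5 higher. The sums thus do not show how single markers differed between populations. In sorted bulk samples, fewer cells of a type and less RNA per cell cannot be told apart.

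**Figure D1:**
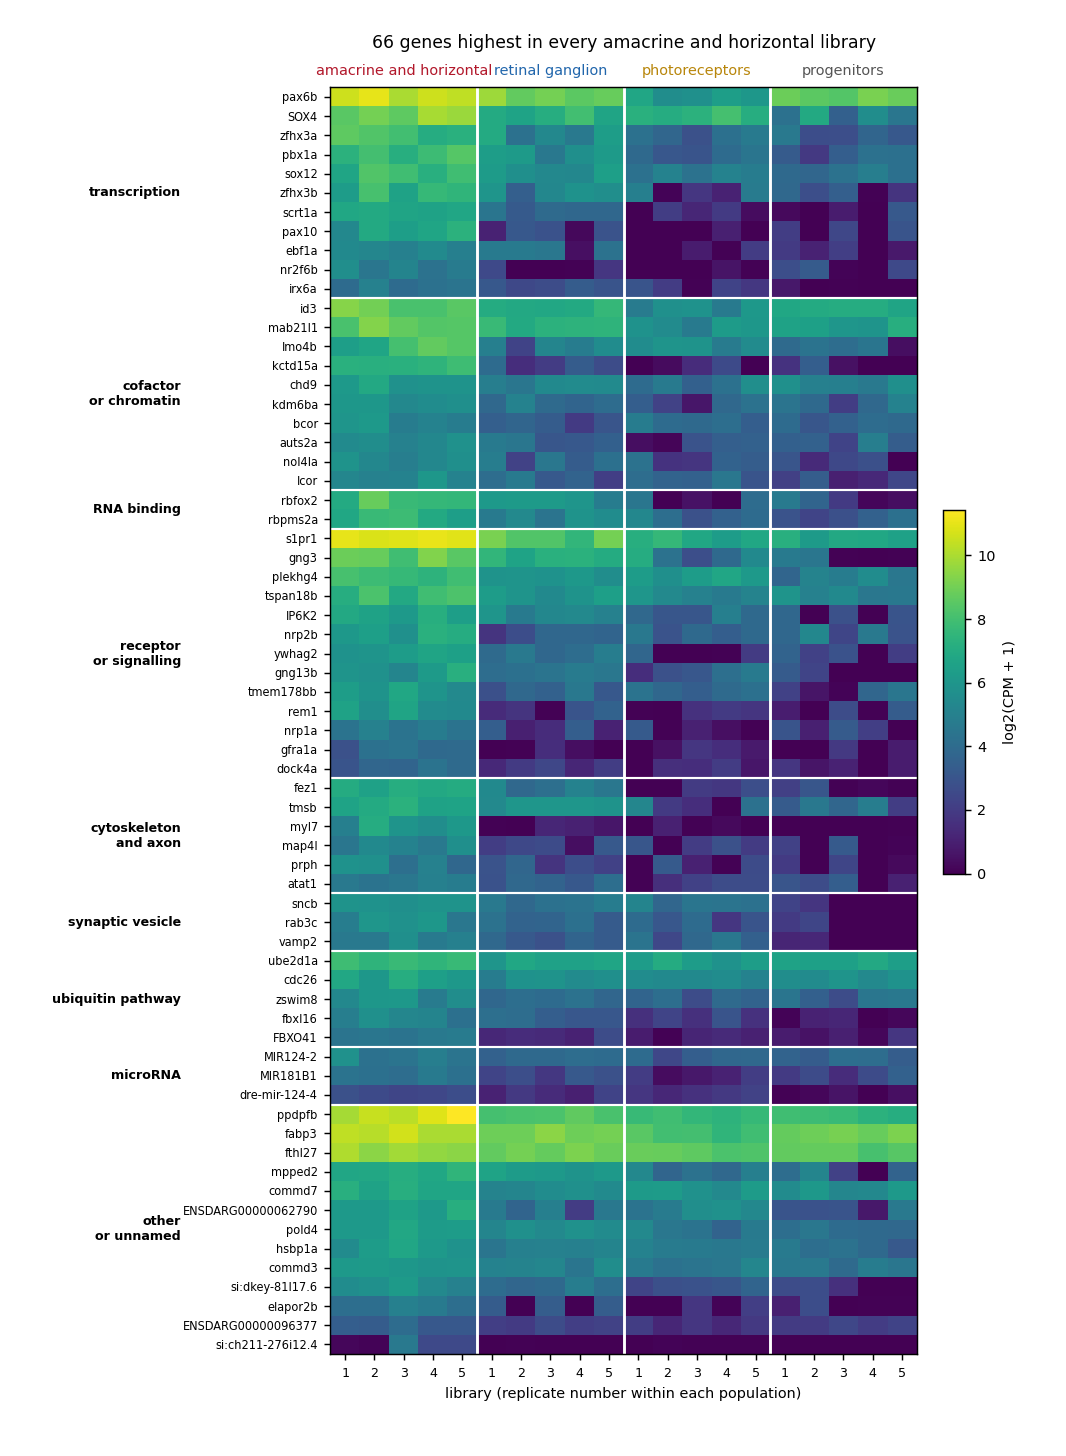
Level of each of the 66 genes (rows, grouped by the role of the product and ordered by mean within a group) in each of the 20 libraries (columns, by population and replicate), as log2(CPM + 1). The 5 amacrine and horizontal columns hold the highest value of every row by construction, and the retinal ganglion columns are the next brightest for 47 of the 66 genes.

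Summed over the 66 genes, RNA made up 12825 to 14761 CPM of the amacrine and horizontal libraries, 3736 to 4743 CPM of retinal ganglion, 1967 to 2663 CPM of photoreceptor and 2392 to 2655 CPM of progenitor libraries. The margin by which a gene qualified varied widely. The ratio of the lowest amacrine and horizontal value to the highest other value was at least 1.5 for 21 genes, at least 2 for 13, at least 3 for 7, at least 5 for 3 and at least 10 for 1, with the highest other value set to no less than 3 counts. By function, 11 of the genes encode transcription factors, 10 cofactors or chromatin proteins, 2 RNA-binding proteins, 13 receptors or signalling proteins, 6 proteins of the cytoskeleton or axon, 3 synaptic vesicle proteins and 5 proteins of the ubiquitin pathway. Another 3 are microRNA genes, and 13 have other or unnamed products.

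**Figure D2:**
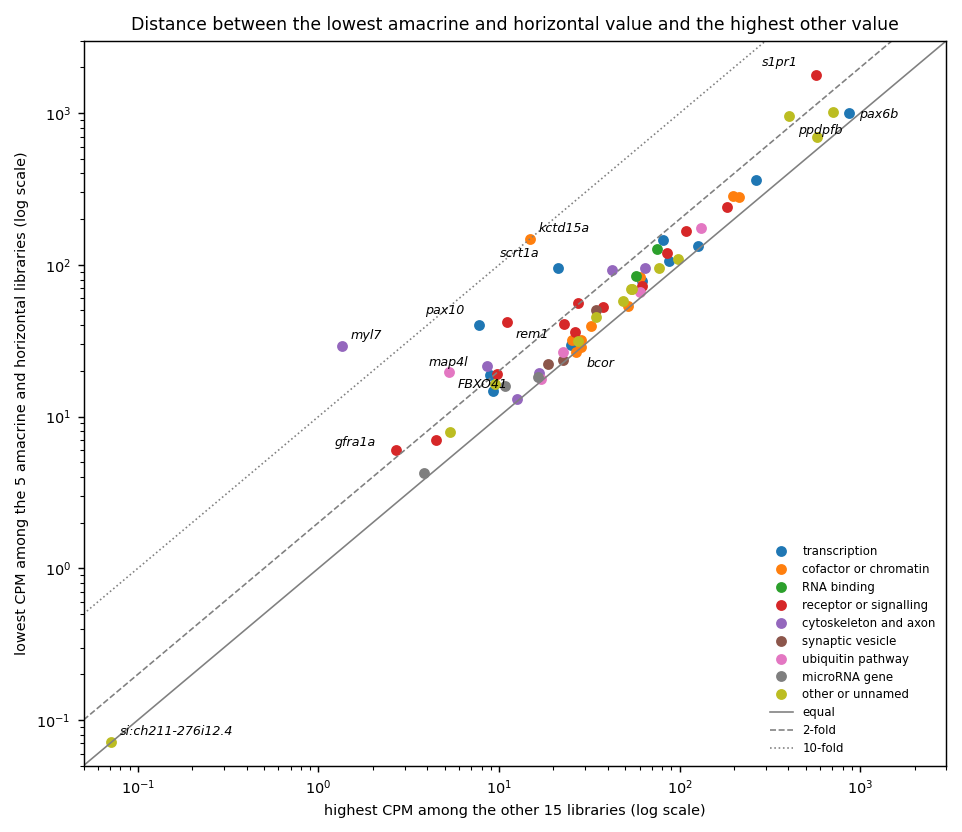
Lowest CPM among the 5 amacrine and horizontal libraries (vertical axis, log scale) against the highest CPM among the other 15 (horizontal axis, log scale) for the 66 genes, coloured by role; lines mark equal values and 2-fold and 10-fold ratios. Only myl7 lies above the 10-fold line, kctd15a lies just under it with a ratio of 9.91, and most genes lie between the equal and 2-fold lines.

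Among the transcription factor genes was pax6b (ENSDARG00000045936, GRCz11 chromosome 7, 15871156 to 15900606), one of a pair of zebrafish genes for the paired and homeodomain factor Pax6, which is needed for eye formation and later kept in amacrine and ganglion cells. It measured 1512, 2042, 1004, 1529.5 and 1298 CPM in amacrine and horizontal replicates 1 to 5 and 47.3 to 862 CPM (median 382) in the other 15 libraries. The lowest amacrine and horizontal value, in replicate 3, exceeded the highest retinal ganglion value only 1.16-fold. Its relative pax10 (chromosome 3, 32546499 to 32565883), a Pax6-like homeobox gene without the paired domain, was much more restricted, at 40.1, 123, 83, 104 and 160.1 CPM against 0 to 7.76 CPM (median 1.04). In photoreceptors pax10 did not exceed 1.04 CPM in any library.

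The gene listed as SOX4 (ENSDARG00000004588, chromosome 19, 28786149 to 28789409) and sox12 (chromosome 11, 24187610 to 24191928) both encode SoxC factors, which act in neurons that have just been born. SOX4 measured 362, 528, 383, 974 and 833 CPM, against 10.5 to 266 CPM (median 128) elsewhere. Replicates 4 and 5 held the most, and photoreceptors, not retinal ganglion cells, came next. It shares 481 exonic bases on the same strand with a separately listed gene, sox4a, which was at 0 in all libraries. Reads over the shared bases may not have been assigned to sox4a, so its 0 does not show that it was silent. Sox12 measured 106, 327, 244, 146 and 244 CPM against 12.7 to 87.4 CPM (median 28.7), with its lowest value in replicate 1.

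Both zebrafish copies of zfhx3, which encodes a very large protein with zinc fingers and homeodomains, qualified. Expression of zfhx3a (chromosome 18, 6039141 to 6083792) was 382, 327, 255, 133 and 152 CPM, against 5.53 to 126 CPM (median 18.1). That of zfhx3b (chromosome 7, 68214935 to 68373495) was 78.7, 272, 96.6, 201 and 179 CPM, against 0.0446 to 61.9 CPM (median 9.99). The copies were not highest in the same libraries: zfhx3a was highest in replicate 1, where zfhx3b was lowest. The related zfhx4 missed qualification, with a lowest amacrine and horizontal value of 153.5 CPM and 157.6 CPM in a retinal ganglion library.

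Pbx1a (chromosome 2, 18698388 to 18830794), a homeodomain partner of Hox and Meis proteins, measured 163, 262, 145, 226 and 343 CPM against 2.78 to 80.6 CPM (median 17.9). Every amacrine and horizontal library was at least 1.8 times the highest other library. Scrt1a (chromosome 19, 1184878 to 1186928), a neuronal zinc finger repressor of the Snail superfamily, was the steadiest of the transcription factors, at 110.5, 125, 101, 95 and 107 CPM against 0 to 21.1 CPM (median 2.8). Its coefficient of variation in the population was 10.4%, and its lowest value was 4.5 times the highest retinal ganglion value.

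The other 3 transcription factor genes were ebf1a, nr2f6b and irx6a. Ebf1a (chromosome 14, 35013656 to 35246931), of the Ebf family of helix-loop-helix factors, measured 42.3, 37.1, 30.4, 42.9 and 29.8 CPM against 0 to 24.9 CPM (median 1.11). Outside retinal ganglion cells it did not exceed 3.32 CPM. Irx6a (chromosome 7, 35511732 to 35516251), an Iroquois homeobox gene, measured 14.9, 31.7, 14.8, 18.2 and 20 CPM against 0 to 9.2 CPM (median 3.15). The orphan nuclear receptor gene nr2f6b had a mean of 30.3 ± 12.6 CPM (SD, n = 5), and its highest other value, 8.89 CPM, was in a progenitor library.

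Among the cofactors, kctd15a (ENSDARG00000045893, chromosome 25, 20357731 to 20381271) stood out. Its product is a BTB domain protein that, in zebrafish neural crest, is known to inhibit AP-2 factors, the products of the tfap2 genes. It measured 155, 147, 151, 174 and 239 CPM in amacrine and horizontal replicates 1 to 5. Retinal ganglion libraries held 14.8, 1.85, 3.1, 9.11 and 5.39 CPM, photoreceptor libraries 0, 0.247, 1.76, 4.95 and 0 CPM and progenitor libraries 2.16, 9.78, 0.415, 0 and 0 CPM. The lowest amacrine and horizontal value was 9.91 times the highest of these, the second largest margin of the 66 genes.

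Id3 (chromosome 17, 27271399 to 27273296) encodes a helix-loop-helix protein that lacks a DNA-binding region and holds basic helix-loop-helix factors inactive. It measured 667, 514, 285, 283 and 366 CPM against 24.3 to 197 CPM (median 116). Mab21l1 (chromosome 15, 33070939 to 33073200), needed for eye growth in mice, measured 281, 628, 419, 333 and 339 CPM against 24.8 to 214 CPM (median 89.5). Both genes were detected in every library of the other populations, and both had their lowest mean in photoreceptors.

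Lmo4b (chromosome 6, 25933736 to 25952870), a LIM-only adaptor of transcription complexes, was among the most variable within the population, at 83, 105, 267, 419 and 344 CPM against 0.33 to 60.5 CPM (median 27.2). Replicates 3 to 5 were all well above replicates 1 and 2. The next highest library was a photoreceptor one.

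The other 6 genes of this class sat close to their limits, with the lowest amacrine and horizontal value at most 1.27 times the highest other one. They were chd9, a chromodomain helicase gene, kdm6ba, a gene for a histone H3 lysine demethylase, bcor, for a corepressor of BCL6, lcor, for a ligand-dependent corepressor of nuclear receptors, auts2a and nol4la. Bcor measured 62.4, 72.7, 26.6, 32.7 and 26.5 CPM, and its highest other value was 26.5 CPM in a photoreceptor library. Nol4la measured 57.6, 38.4, 28.6, 38.5 and 50.8 CPM against a highest other value of 28.3, and chd9 70.9, 117, 53.6, 57 and 58.7 CPM against 52. For these genes the highest library of another population nearly reached the lowest amacrine and horizontal one.

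The pair of RNA-binding proteins comprised a splicing regulator and a known ganglion cell marker. Rbfox2 (chromosome 6, 296130 to 342216), which binds a short motif near alternative exons, measured 126, 435, 213, 194 and 189 CPM against 0 to 74.9 CPM (median 15.5), with replicate 2 far above the rest. Rbpms2a (chromosome 25, 6122823 to 6153077), used as a marker of retinal ganglion cells, measured 113, 216, 226, 123 and 84 CPM against 4.15 to 57.4 CPM (median 16.4). Every amacrine and horizontal library thus had a higher rbpms2a CPM than the highest retinal ganglion library, at 57.4 CPM. Its partner rbpms2b did not separate this pair of populations, at 500.8 to 1038 CPM in amacrine and horizontal and 351 to 903 CPM in retinal ganglion libraries.

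**Figure D3:**
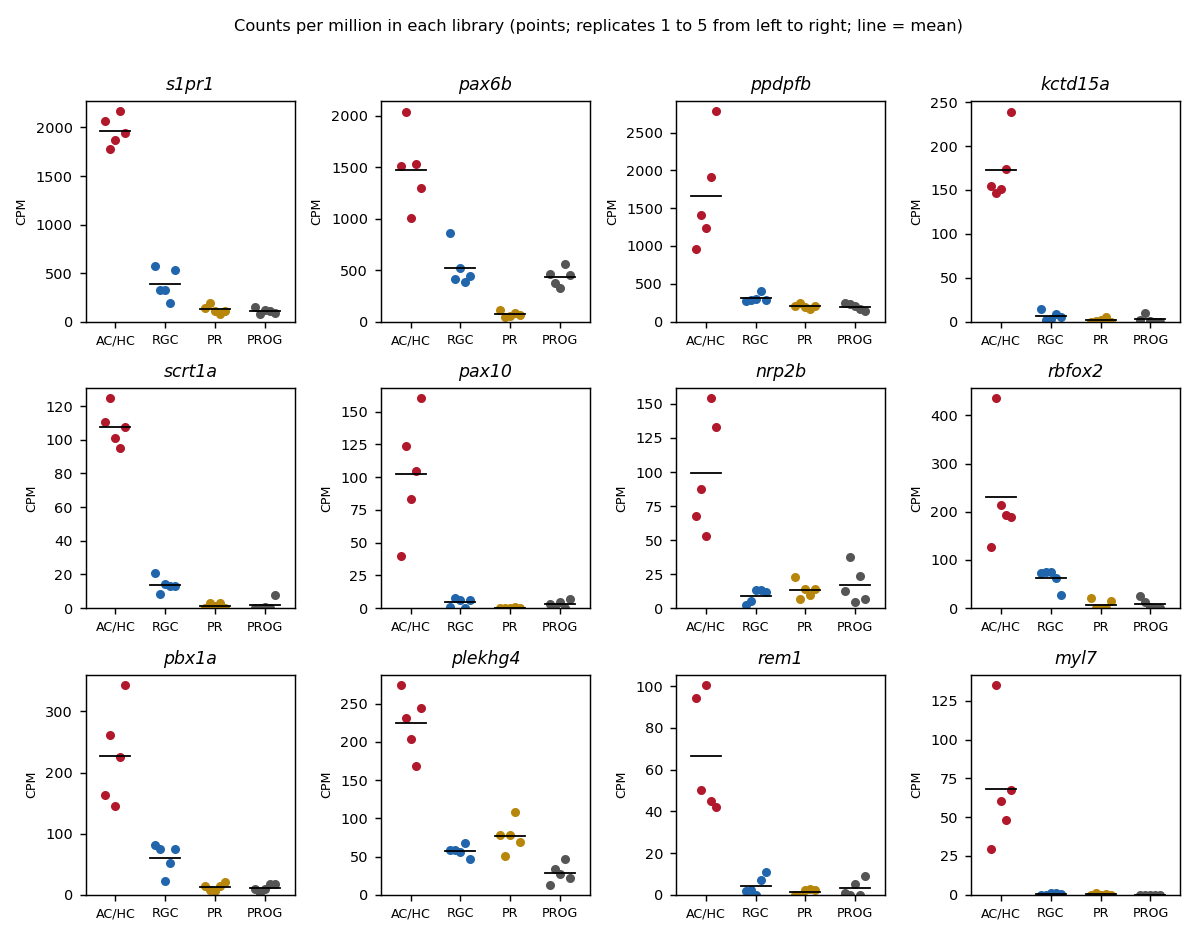
CPM in each library (points, replicates 1 to 5 from left to right; black line, mean of 5) for 12 of the genes in amacrine and horizontal cells (AC/HC), retinal ganglion cells (RGC), photoreceptors (PR) and progenitors (PROG), on linear axes that start at 0. The AC/HC points lie above all others in each panel, by a wide gap for s1pr1, kctd15a, scrt1a and myl7 and by a narrow one for pax6b.

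The gene with the highest mean CPM of the 66 was s1pr1 (ENSDARG00000042690, chromosome 22, 16038495 to 16042243), which encodes a G protein-coupled receptor for sphingosine-1-phosphate, a lipid signal best known from blood vessels and lymphocytes. It measured 2067, 1778, 1874, 2165 and 1946 CPM in amacrine and horizontal replicates 1 to 5, a coefficient of variation of 7.8%. Values in retinal ganglion libraries were 571, 321, 321, 186 and 530.2 CPM, in photoreceptor libraries 141, 194, 112, 78.7 and 111 CPM and in progenitor libraries 148, 73.3, 119, 110.2 and 91.4 CPM. The lowest amacrine and horizontal library held 3.11 times the level of the highest other one. Divided by exon length, its mean was 836 CPM per kilobase, and only ppdpfb (1602) and fabp3 (1480.3) were higher.

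G protein signalling was also represented by a pair of gamma subunits, gng3 and gng13b. Gng3 (chromosome 21, 26697536 to 26707052) measured 472, 440.3, 242, 612 and 361 CPM against 0 to 183 CPM (median 24.5), and gng13b had a mean of 74.2 ± 43.5 CPM (SD, n = 5) with 26.4 CPM as the highest other value. Each was at 0 in at least 1 progenitor library. Rem1 (chromosome 11, 24313931 to 24332052), a small GTPase of a family that inhibits voltage-gated calcium channels, measured 94.1, 50.1, 101, 45.1 and 42.1 CPM against 0 to 11 CPM (median 2.1). Replicates 1 and 3 were well above the other 3, and the lowest of the 5 was 3.82 times the highest other library.

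Neuropilins are receptors that bind semaphorins and vascular growth factors and help to steer axons and vessels, and a pair of their genes qualified. Nrp2b (chromosome 9, 14367570 to 14504834) measured 67.6, 87.7, 52.66, 154 and 133 CPM against 2.33 to 37.8 CPM (median 12.9), and its highest other value was in a progenitor library. Nrp1a (chromosome 24, 1162325 to 1356668) measured 19.4, 31.3, 19.7, 27 and 19.2 CPM against 0 to 9.75 CPM (median 1.15). Gfra1a (chromosome 13, 20392656 to 20519001), the co-receptor for the neurotrophic factor GDNF, measured 6.06, 18.1, 20.4, 14 and 14.3 CPM against 0 to 2.69 CPM (median 0.324). All 3 receptors were detected in every amacrine and horizontal library, while nrp1a and gfra1a were at 0 in some of the others.

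Plekhg4 (chromosome 7, 34687969 to 34776900) measured 275, 232, 203, 168 and 244 CPM against 12.2 to 109 CPM (median 56.5), with photoreceptors next. Tspan18b (chromosome 18, 27732285 to 27813164), a tetraspanin, measured 137, 296, 119.5, 246 and 303 CPM against 22.1 to 85.6 CPM (median 42), with replicates 2, 4 and 5 well above replicates 1 and 3. The remaining 4 of this class were an inositol hexakisphosphate kinase gene listed as IP6K2 (ENSDARG00000019613), ywhag2 for a 14-3-3 protein, dock4a for a Rac exchange factor and tmem178bb. Ywhag2 had the widest margin of these, with a mean of 77.8 ± 19.9 CPM (SD, n = 5) and 27.4 CPM as its highest other value. Counting ignored strand, and exons of dock4a share 1298 bases with an opposite-strand gene. Reads over those bases cannot be told apart by strand, so its counts may be inexact there.

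The largest margin of all 66 belonged to myl7 (ENSDARG00000019096, chromosome 8, 40457107 to 40464935), which encodes the regulatory light chain of cardiac myosin and is the standard marker of the zebrafish heart. It measured 29.3, 135, 60.4, 47.9 and 67.4 CPM in amacrine and horizontal replicates 1 to 5 and 0 to 1.34 CPM (median 0.0366) in the other 15 libraries. Even the lowest of the 5, replicate 1, was 21.8 times the highest other value, which was in a retinal ganglion library. The remaining 19 matched genes of a heart and muscle list summed to 1.17 to 8.18 CPM in the amacrine and horizontal libraries. The highest values among them were tnnt3b, a fast skeletal troponin T gene, at 5.33 CPM in replicate 2, actc1b, an actin gene of muscle, at 3.27 CPM in replicate 4, the muscle creatine kinase gene ckma at 2.21 CPM and the atrial myosin gene myh6 at 0.917 CPM in replicate 5. For tnnt3b, ckma and myh6 these were also the highest values of all 20 libraries. Cardiac troponin T (tnnt2a), the cardiac light chain gene cmlc1 and the cardiac factor gata4 had at most 1 count in any of the 5, and nppa, nppb, tnni1b, myod1 and hand2 had 0, which allows up to 0.10 to 0.13 CPM per library (3 counts, counting error only). A muscle gene signal did appear in another population, where progenitor replicate 4 reached 135.9 CPM over the list while its myl7 was at 0. Only 20 of the 28 symbols of the list matched a gene, so other heart genes went unseen. The source of the myl7 RNA was not tested.

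Among the cytoskeleton genes proper, fez1 (chromosome 10, 31738501 to 31782616), for a kinesin adaptor in axons, had the next widest margin after map4l. Fez1 had a mean of 122 ± 18 CPM (SD, n = 5), against 42.1 CPM as the highest other value, in a retinal ganglion library, and at most 7.36 CPM in photoreceptors and progenitors. Map4l (chromosome 2, 24177006 to 24252506), a relative of microtubule-associated protein 4, measured 21.6, 42, 33, 23.4 and 50.4 CPM against 0 to 8.54 CPM (median 3.17). The others were tmsb, for an actin-binding thymosin, prph, for the neuronal intermediate filament peripherin, and atat1, for the acetyltransferase of alpha-tubulin. In all 6 genes of this class the second highest mean was that of retinal ganglion cells.

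The synaptic vesicle genes were sncb, rab3c and vamp2, for beta-synuclein, a vesicle GTPase and the vesicle SNARE synaptobrevin. Sncb (chromosome 14, 50770537 to 50804016) was the steadiest of all 66 genes, at 57.8, 56.4, 50.5, 58 and 58.6 CPM against 0 to 34.5 CPM (median 18.2), a coefficient of variation of 5.86%. Vamp2 (chromosome 10, 22838364 to 22845485) measured 23.8, 23.5, 51.1, 25.3 and 30.5 CPM against 0 to 22.5 CPM (median 8.16). Rab3c had a mean of 46.5 ± 20.2 CPM (SD, n = 5) and 18.6 CPM as its highest other value. In progenitors none of the 3 exceeded 4.32 CPM.

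In the ubiquitin pathway, ube2d1a (chromosome 17, 21051022 to 21057674), an E2 conjugating enzyme gene, measured 235, 174, 218, 179 and 208 CPM and 55.1 to 131 CPM (median 89.6), so it was well expressed everywhere. FBXO41 (ENSDARG00000076310, chromosome 23, 45584223 to 45606426), for a neuronal F-box protein, measured 20.2, 21.3, 19.7, 23.6 and 26.2 CPM against 0.0354 to 5.28 CPM (median 1.11). Fbxl16 (chromosome 3, 28634467 to 28665291), another F-box gene, measured 29.1, 52.3, 37.5, 35 and 17.7 CPM against 0 to 17.2 CPM (median 2.09). The class also held cdc26, a subunit of the anaphase-promoting complex, and zswim8, a receptor of a cullin ligase that acts on Argonaute. Their highest other values, 60.4 and 22.6 CPM, were both in progenitor libraries.

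The microRNA genes were a pair from the miR-124 family, the main microRNA of neurons, and one from the miR-181 family. The libraries were made from polyadenylated RNA, so the reads over these short loci are not a measure of the mature microRNAs. MIR124-2 (ENSDARG00000081423, chromosome 24, 24455632 to 24455748) ran from 18.1 to 54.7 CPM in the population, with 16.4 CPM as the highest other value. Dre-mir-124-4 ran from 4.26 to 6.06 CPM with 3.86 CPM as the highest other value, and its mean of 5 CPM was just over the minimum. MIR181B1 (ENSDARG00000083588) ran from 15.9 to 24.4 CPM, against at most 10.7 CPM elsewhere.

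Among the genes with other products, ppdpfb (chromosome 23, 17427838 to 17429775), named for pancreatic progenitor differentiation and proliferation, was the highest of all 66 per kilobase. It measured 956, 1410.2, 1241, 1909 and 2780.5 CPM against 137 to 404 CPM (median 231), with replicate 5 at 2.91 times replicate 1. Fabp3 (chromosome 19, 42955280 to 42993306), a fatty acid binding protein gene, measured 1320.4, 1178, 1637, 1019.8 and 1025 CPM against 177 to 706 CPM (median 478). Fthl27 (chromosome 3, 32099507 to 32100999), a ferritin heavy chain gene, measured 1073, 704, 915, 757 and 698 CPM against 279 to 574 CPM (median 423). Fabp3 and fthl27 were thus abundant in every population and qualified by ratios of 1.44 and 1.22.

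Pold4 (chromosome 1, 44707054 to 44710937), for the smallest subunit of DNA polymerase delta, measured 68.8, 70.1, 117, 77 and 79.1 CPM against 11.6 to 53.5 CPM (median 22.3). At the other end, the unnamed si:ch211-276i12.4 (chromosome 14, 45645024 to 45671346) measured 0.162, 0.0711, 23.9, 4.8 and 4.75 CPM against at most 0.0707 elsewhere. Its lowest values rest on 2 to 5 counts, and its highest other value on 2 counts. Library totals alone thus put its lowest value above the highest other one. With the highest other value set to 3 counts, its ratio was 0.671. Replicate 3 carried its mean, 6.73 CPM. The other 8 genes had means from 10.1 to 130.4 CPM. They were mpped2, for a metallophosphoesterase, commd3 and commd7, for COMM domain proteins, hsbp1a, for a heat shock factor binding protein, elapor2b, si:dkey-81l17.6, ENSDARG00000062790 and ENSDARG00000096377.

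Enc3, with a lowest amacrine and horizontal value of 97.3 CPM and a highest other value of 97.4 CPM, was just outside the rule, followed by mbd3b (320.6 against 322.9), lsm6 (307.4 against 313.6), zfhx4 and rab11a (87.2 against 89.98). Bcor, nol4la, chd9 and fbxl16 were just inside. Arhgap32a and a gene known only by a clone name met the order but had means of 1.28 and 3.04 CPM, under the minimum.

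Within the 5 amacrine and horizontal libraries the 66 genes did not share one order. Replicates 1 to 5 held the highest value of 11, 14, 16, 13 and 12 genes and the lowest of 17, 11, 16, 10 and 12. The median coefficient of variation was 34.5%, against 61.5% over all 8262 genes with a mean of at least 5 CPM, and the rule itself favours genes that vary little. For 26 of the 66 (39.4%) the highest library was less than 2 times the lowest, and for 11 it was more than 3 times. Over all 8262 genes the first held for 14.9% and the second for 5703 genes. Those with the steadiest values were sncb, s1pr1 and commd3, and the least steady was si:ch211-276i12.4. With 5 libraries, no correlation between members was computed.

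The order of the other 3 populations was not set by the rule and could be tested. The highest mean of the 3 was that of retinal ganglion cells for 47 of the 66 genes (71.2%), that of photoreceptors for 13 and that of progenitors for 6. Over all 8262 genes with a mean of at least 5 CPM in amacrine and horizontal cells, retinal ganglion cells were next for 36.6%. The library with the highest value outside the population was a retinal ganglion library for 46 genes, and replicate 1 of that population for 16. Progenitors had the lowest mean for 35 genes, photoreceptors for 27 and retinal ganglion cells for 4. Retinal ganglion libraries also held ptf1a RNA, at a mean of 191 CPM against 174 in amacrine and horizontal libraries. Their amacrine and horizontal marker sums were 1542 to 2269 CPM, against at most 1099 in photoreceptor and progenitor libraries. Whether amacrine or horizontal cells were in the retinal ganglion sort, and their part in this order, was not tested. Differences were tested with edgeR on the 15 libraries that are not amacrine and horizontal, with adjustment over 13340 genes and a threshold of 0.05. Of the 66 genes, 64 passed the filter on low counts, and myl7 and si:ch211-276i12.4 did not.

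**Figure D4:**
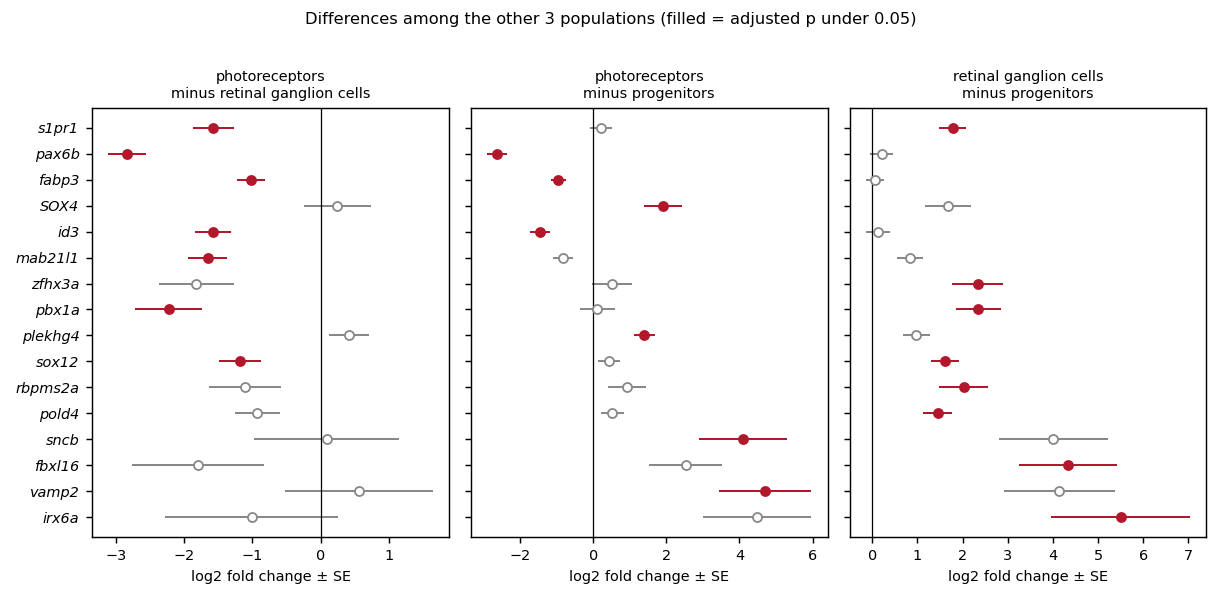
Log2 fold change ± SE (horizontal axis) for the 16 genes that passed the test in at least one comparison among photoreceptors, retinal ganglion cells and progenitors; filled red points passed at an adjusted p under 0.05 and open grey points did not. Filled points lie to the left in photoreceptors minus retinal ganglion cells (7 genes) and to the right in retinal ganglion cells minus progenitors (8 genes), and on both sides in photoreceptors minus progenitors. The SE was derived from the log2 fold change and the test statistic.

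Between photoreceptors and retinal ganglion cells, 7 of the 64 genes passed, all lower in photoreceptors, and 0 were higher. Over all genes tested, 2.44% passed as lower in photoreceptors and 2.59% as higher. At an unadjusted p under 0.05 the genes numbered 15 lower and 2 higher. By the DESeq2 Wald test 10 were lower and 0 higher. No share over all genes is given for these looser criteria, so their counts are only a description. A negative log2 fold change was found for 51 of 64. The median log2 fold change was -1.01, against 0.00 over all genes. Of the 7, pax6b had the largest log2 fold change, with 71.8 ± 25.5 CPM in photoreceptor libraries and 523 ± 196 CPM in retinal ganglion libraries (SD, n = 5 each), a log2 fold change of -2.84 (SE 0.27, edgeR adjusted p 1.39e-05). Its libraries did not overlap. Pbx1a was lower in photoreceptors, at a log2 fold change of -2.23 (SE 0.50, edgeR adjusted p 0.0129), with 6.94 to 20.9 CPM there and 23.1 to 80.6 in retinal ganglion libraries. The cofactor genes mab21l1 and id3 were lower too, at log2 fold changes of -1.66 (SE 0.29, edgeR adjusted p 0.00256) and -1.58 (SE 0.27, edgeR adjusted p 0.00197), again without overlap.

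The receptor gene s1pr1 was lower in photoreceptors, at a log2 fold change of -1.57 (SE 0.30, edgeR adjusted p 0.00463), although the highest photoreceptor library (194 CPM) exceeded the lowest retinal ganglion library (186 CPM). Fabp3 was lower as well, at -1.02 (SE 0.21, edgeR adjusted p 0.00701). Sox12 was lower at -1.18 (SE 0.31, edgeR adjusted p 0.0335), and it passed in 13 of 22 alternative fits. It did not pass without retinal ganglion replicate 1, 2 or 5 or photoreceptor replicate 1, 3, 4 or 5, each left out in turn, with log2 fold changes of -1.25 to -0.99 and adjusted p of 0.0514 to 0.1 by edgeR. With a replicate block its adjusted p was 0.0588, and with no filter on low counts 0.0645. The other 6 passed in all 22.

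Between photoreceptors and progenitors, 4 genes were higher in photoreceptors and 3 lower, where 5.99% and 4.43% of all genes passed. Together the calls were 10.9% of the 64. Both counts were thus near the shares over all genes and show nothing particular to the 66 genes as a set. With only these 2 populations in the fit 1 was higher and 3 were lower, and the DESeq2 Wald test called 8 higher and 4 lower. No share over all genes is given for these alternatives. The signs were mixed, with 35 of 64 positive and a median log2 fold change of 0.13, against 0.02 over all genes. Pax6b, id3 and fabp3 were lower in photoreceptors here too, at log2 fold changes of -2.63 (SE 0.27, edgeR adjusted p 8.99e-06), -1.45 (SE 0.27, edgeR adjusted p 0.00191) and -0.95 (SE 0.20, edgeR adjusted p 0.00617). This comparison shares its photoreceptor libraries with the previous one. Plekhg4 was higher in photoreceptors, at 77.3 ± 20.7 CPM against 28.5 ± 13.1 in progenitors (SD, n = 5 each), with a log2 fold change of 1.40 (SE 0.29, edgeR adjusted p 0.00521).

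SOX4 was higher in photoreceptors, at a log2 fold change of 1.91 (SE 0.51, edgeR adjusted p 0.025), with progenitor libraries at 18.5, 124, 10.5, 47.4 and 21.4 CPM. It passed in 17 of 21 alternative fits, while the DESeq2 Wald test gave it no adjusted p. It did not pass without photoreceptor replicate 4 or progenitor replicate 1 or 5 (adjusted p of 0.0507 to 0.0611 by edgeR) or with only the 2 populations in the fit (0.0533). The vesicle genes vamp2 and sncb were higher as well, with adjusted p of 0.0251 and 0.0402 by edgeR, at 4.38 to 22.5 and 12.7 to 34.5 CPM in photoreceptors. In progenitors both were at 0 in some libraries and at most 1.41 and 3.89 CPM in others, so their fitted fold changes depend on the prior count. Vamp2 passed in 21 of 22 alternative fits and sncb in 10. Sncb did not pass without any one of the photoreceptor libraries, retinal ganglion replicate 1, 3 or 5 or progenitor replicate 2, 3 or 5, with adjusted p of 0.0517 to 0.0674 by edgeR. With only the 2 populations in the edgeR fit neither gene passed, with adjusted p of 0.0774 for vamp2 and 0.122 for sncb.

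Between retinal ganglion cells and progenitors, 8 genes were higher in retinal ganglion cells and 0 lower, where 3.4% and 2.63% of all genes passed. At an unadjusted p under 0.05 the genes numbered 28 higher and 0 lower, and the DESeq2 Wald test called 19 higher and 0 lower. No share over all genes is given for these looser criteria, so their counts are only a description. Without retinal ganglion replicate 5, or without progenitor replicate 3, 5 passed. Of the 64, 55 had a positive log2 fold change, with a median of 1.16 against 0.02 over all genes. S1pr1 was higher in retinal ganglion cells, at a log2 fold change of 1.78 (SE 0.30, edgeR adjusted p 0.00172), sox12 at 1.61 (SE 0.31, edgeR adjusted p 0.00485), pbx1a at 2.35 (SE 0.50, edgeR adjusted p 0.00917) and pold4 at 1.45 (SE 0.33, edgeR adjusted p 0.0135). None of these 4 overlapped between the populations, and all 4 passed in all 22 alternative fits.

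Zfhx3a was higher, at a log2 fold change of 2.34 (SE 0.56, edgeR adjusted p 0.0199), but its lowest retinal ganglion library (18.1 CPM) was under its highest progenitor library (23.6 CPM). It passed in 18 of 22 alternative fits, and not without retinal ganglion replicate 1 or 5 or progenitor replicate 3 or 5 (adjusted p of 0.0507 to 0.0693 by edgeR). Rbpms2a was higher, at a log2 fold change of 2.02 (SE 0.54, edgeR adjusted p 0.0348), and passed in 15. It did not pass without retinal ganglion replicate 2, 4 or 5 or progenitor replicate 1, 2, 3 or 4 (adjusted p of 0.0609 to 0.0889 by edgeR). Fbxl16, at 7.5 to 17.2 CPM in retinal ganglion cells and at most 1.37 in progenitors, had an adjusted p of 0.0244 and passed in 20, not without retinal ganglion replicate 1 or progenitor replicate 5 (adjusted p of 0.0557 to 0.0558 by edgeR). Irx6a, at 4.53 to 9.2 CPM against at most 0.692, had an adjusted p of 0.0432 by edgeR and passed in 8. Irx6a did not pass without any one of the retinal ganglion libraries, photoreceptor replicate 2, 4 or 5 or progenitor replicate 2, 3, 4 or 5 (adjusted p of 0.0526 to 0.0914), with no filter on low counts (0.0558) or with only the 2 populations in the edgeR fit (0.0589). Progenitor libraries of the last 2 were at or near 0, and their fitted fold changes are not bounds.

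Set side by side, s1pr1, pbx1a and sox12 shared an order, with retinal ganglion cells second and photoreceptors and progenitors well below. S1pr1 averaged 386, 127 and 108 CPM in retinal ganglion cells, photoreceptors and progenitors. Pax6b and id3 were lower in photoreceptors than in both other populations, and retinal ganglion cells and progenitors overlapped and did not pass the test (log2 fold changes of 0.21 (SE 0.26, edgeR adjusted p 0.754) and 0.13 (SE 0.26, edgeR adjusted p 0.874)). Id3 averaged 137, 45.8 and 122 CPM in the same 3 populations.

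Zebrafish often keep a pair of copies of a gene from a duplication of the whole genome in the teleost lineage, and the copies can be used in different cells. For 29 of the 66 genes another gene with the same name stem was in the table. This gave 30 combinations of member and partner, with zfhx3a and zfhx3b each counted as the partner of the other. Zfhx3a and zfhx3b were the only pair in which both qualified. A shared stem does not by itself make a partner such a copy. The listed sox4a overlaps SOX4 on chromosome 19, the second IP6K2 gene is on chromosome 6 like the first, and the second KCTD15 gene is on a scaffold outside the numbered chromosomes. Of the other partners, 11 were under 5 CPM in every population and 17 reached 5 CPM in at least 1. The 11 include sox4a, whose 0 does not show that it was silent. The highest mean of these 17 was that of amacrine and horizontal cells for 8, of photoreceptors for 7, of progenitors for 1 and of retinal ganglion cells for 1.

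The photoreceptor-high partners included ppdpfa, with 91.7 CPM in photoreceptors and 26.6 in amacrine and horizontal cells, where ppdpfb had 202 and 1659. Dock4b had 27.0 CPM in photoreceptors and 3.83 in amacrine and horizontal cells, where dock4a had 1.49 and 13.2. Auts2b had 17.5 and 2.06 CPM, where auts2a had 5.62 and 43. These pairs were described after their values were seen, and the difference within a pair was not tested.

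Nrp1b was highest in retinal ganglion cells, at 7.35 CPM, with 2.31 in amacrine and horizontal cells, whereas nrp1a had 4.63 and 23.3. Pax6a followed the pattern of pax6b, with a mean of 917.0 CPM where pax6b was highest, 494.6 CPM in retinal ganglion cells, 344.5 CPM in progenitors and 57.8 CPM in photoreceptors. It failed to qualify because 1 retinal ganglion library (784.4 CPM) exceeded the lowest amacrine and horizontal one (749.1 CPM).

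**Figure D5:**
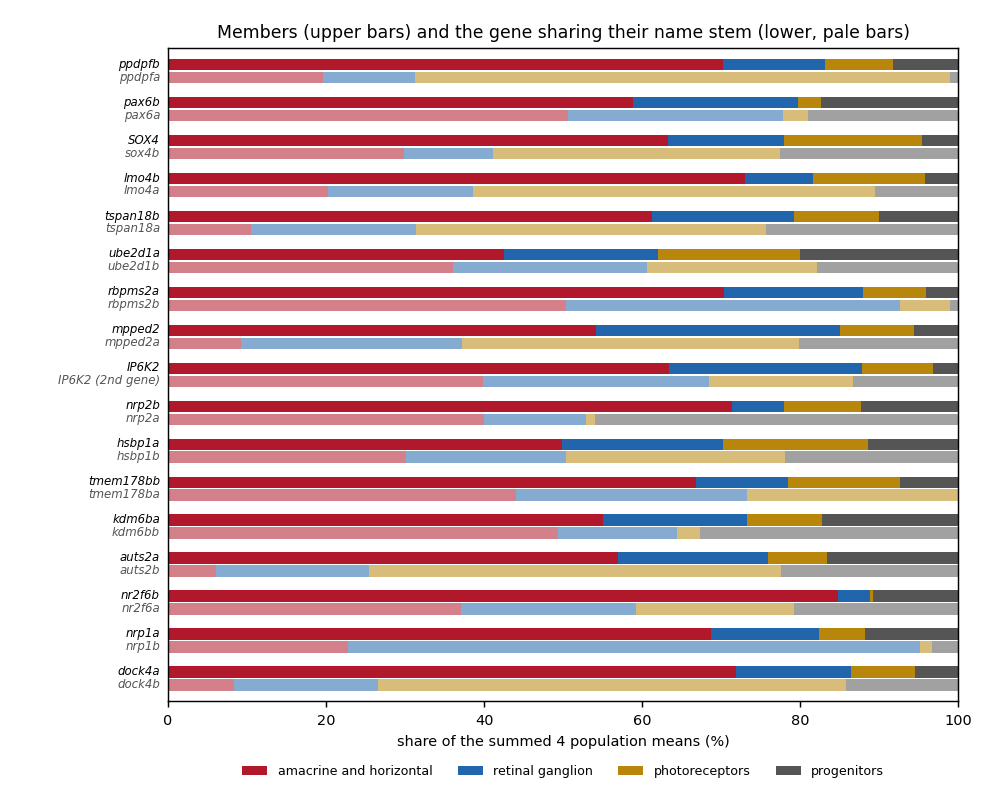
Share of the summed 4 population means (horizontal axis, %) taken by each population for 17 of the genes (upper, solid bars) and the partner with the same name stem (lower, pale bars), where the partner reached 5 CPM in at least 1 population. Amacrine and horizontal cells take 42.5% to 84.8% of the upper bars, which the rule favours, and 6.11% to 50.6% of the lower ones.

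The wider gene lists gave the setting of these genes in the same libraries. The filter on low counts keeps a gene present in any 1 population. A listed gene may therefore have been tested only because it was high in amacrine and horizontal cells. The lists were also chosen with earlier results of these data known. Counts of higher genes, in this list and those below, are thus a description. In a list of transcription factors of amacrine and horizontal cells, 54 genes outside the 66 were tested. The 6 genes that met the rule but were set aside by name (tfap2a, tfap2b, tfap2c, tfap2e, barhl2 and lhx9) are among them, and their difference was fixed by the rule, so they are left out of the counts here. Of the other 48, against retinal ganglion cells 1 was higher (sox2) and 1 was lower (tbx2b), where 0.224% and 0.6% of all genes passed. Here and below, the shares over all genes do not leave out the 72 genes that met the rule. The list counts set beside them do. Looser criteria were counted only over all 54, with the 6 included. No share over all genes is given for the looser criteria, here or in the lists below. At an unadjusted p under 0.05, 16 of the 54 were higher and 4 lower, and the DESeq2 Wald test called 12 higher and 2 lower. The median log2 fold change of the 48 was 0.84, against -0.05 over all genes. Against photoreceptors 22 were higher and 2 lower, where 3.94% and 4.77% of all genes passed. Against progenitors 18 were higher and 0 lower (1 lower at an unadjusted p under 0.05, 0 by the DESeq2 Wald test), where 5.61% and 5.51% passed. Pax6b, zfhx3b, ebf1a and lmo4b are in this list and were not counted. Sox2 and tbx2b were named after their values were seen.

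Of 17 tested genes of GABA and glycine transmission, 0 passed against retinal ganglion cells. The unadjusted p was under 0.05 there for 3 higher and 1 lower gene, and the DESeq2 Wald test called 2 higher and 1 lower. Against photoreceptors 2 were higher (gad2 and slc32a1), where 3.94% of all genes passed as higher. Against progenitors 3 were higher (gad2, slc32a1 and slc6a1a) and 1 was lower (abat), where 5.61% and 5.51% of all genes passed. Gad2, slc32a1 and slc6a1a exceeded 1 CPM in 4, 5 and 3 amacrine and horizontal libraries. They did so in 2, 1 and 0 of the other 15. They therefore reached the filter on low counts mainly or only through the population in which they were high. Their passing is a description. None of the 66 genes belongs to this list. Of 5 tested genes for other amacrine transmitters and peptides, 1 passed in any of the 3 comparisons, the neuropeptide gene adcyap1b, higher against progenitors.

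Of 10 tested horizontal cell genes, 0 passed against retinal ganglion cells, where 1 was lower both at an unadjusted p under 0.05 and by the DESeq2 Wald test. Against photoreceptors 3 were lower (rprmb, rxrga and rxrgb), and against progenitors 1 was higher (grik1b) and 1 was lower (rprmb). Of 21 tested semaphorin, plexin and neuropilin genes other than nrp1a and nrp2b, 0 passed against retinal ganglion cells, where 1 was higher and 2 lower by either of those criteria. Against photoreceptors 1 was higher (plxna2) and 1 lower (sema3aa). Against progenitors 1 was lower, sema5a. Of 39 tested adhesion genes of the retinal sublaminae, 0 passed against retinal ganglion cells, where 5 were higher and 0 lower at an unadjusted p under 0.05 and 3 were higher by the Wald test. Against photoreceptors 5 were higher (cntn2, tenm2a, tenm3, nrxn1a and slit3) and 2 lower (cntn1a and robo3), and against progenitors 4 were higher (dscama, dscaml1, cntn2 and kirrel3a) and 1 lower (cntn1a). These list genes were named after their values were seen. Over all genes, 0.224% passed as higher and 0.6% as lower against retinal ganglion cells. The shares were 3.94% and 4.77% against photoreceptors and 5.61% and 5.51% against progenitors. The single calls among the semaphorin, plexin and neuropilin genes were near those shares. Over the 6 lists, with the 6 genes that met the rule counted, 6, 44 and 37 genes passed against retinal ganglion cells, photoreceptors and progenitors, and without amacrine and horizontal replicate 1 these numbers were 9, 49 and 43.

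The 66 genes lay on 22 chromosomes, with 7 on chromosome 7 and 6 on chromosome 3. The closest neighbours were sox12 and rem1 on chromosome 11, 122.0 kb apart, and id3 and dre-mir-124-4 on chromosome 17, 129.0 kb apart. Spans of 21 genes overlap another annotated gene, and exons of 8 share bases with one: SOX4, fabp3, tmsb, auts2a, nol4la, irx6a, tmem178bb and dock4a. Because counting ignored strand, reads over shared bases cannot be told apart between these genes and neighbours on either strand.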

How the data were processed

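Unnormalized read counts of each gene in 20 libraries of 42 hpf zebrafish retinal cells were deposited by the authors. Reads were aligned with GSNAP to GRCz11 and counted with featureCounts over exons of Ensembl release 95, ignoring strand and requiring a mapping quality of at least 1, per the file headers. The submitters' processing notes name featureCounts 1.6.3 and bcl2fastq 2.19.1. All 20 columns matched a labelled sample by name. Deposited exon lengths served only for levels per kilobase.

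From the counts, CPM were computed over Ensembl genes (1e+06 scale). Tests used edgeR 4.0.16 in R 4.3.3: TMM scaling, filterByExpr by group, the 2-sided quasi-likelihood test and Benjamini-Hochberg adjustment over all genes tested, with a threshold of 0.05. Each SE was the absolute log2 fold change divided by the square root of the F statistic of that test, and was not estimated separately. Comparisons among the other 3 populations used their 15 libraries, and gene lists used all 20 (13838 genes). The code was tested on simulated counts. DESeq2 1.42.0, other scalings, filters, leaving out each library, a term for the track number range in the labels (77357 to 77363 or 77453 to 77465) and a replicate block were alternatives.

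The members, gene lists (6 lists, and 11 of cell type markers), roles and tests were chosen with earlier results of these data known. Genes given with every amacrine and horizontal value were the 20 of highest mean, the 10 of largest margin, those in a list and those passing a test among the other 3 populations; the 5 members with the smallest margin and the 5 genes nearest outside were also named. Gene symbols were looked up by Ensembl identifier, and 29201 genes had one. Human-style symbols were replaced by the zebrafish name that the RefSeq gene table (GRCz12tu) places on the same chromosome, for 37 of the 66 genes. Capitals remain where none could be settled. Of 496 list symbols, 457 matched a gene. Coordinates are as deposited.

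No 2 libraries of a group agreed within sampling noise (the smallest chi-square per degree of freedom was 61.3). Libraries of a group are separate samples of pooled retinas per the labels, and whether same-numbered libraries share retinas is not stated. Intervals and floors cover counting error only. Spike-in features stayed out of totals and tests. Promoter motifs were not analysed here.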

Additional observations from a re-analysis of the deposited data

Results flagged for a closer look

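Of the 66 genes, 8 had 1 amacrine and horizontal library whose gap to the nearest of the other 4 exceeded 0.71 of the whole range of the 5. About 1 of 20 groups of normally distributed values would pass that limit. CPM need not be so distributed, and the share over all genes is not given here, so the 8 are only a description. In replicate 2, rbfox2 was high at 435 CPM with 213 CPM next, and chd9 at 117 CPM with 70.9 next. Replicate 3 was high for pold4 at 117 CPM (79.1 next), vamp2 at 51.1 CPM (30.5 next), ENSDARG00000096377 at 15.7 CPM (9.59 next) and si:ch211-276i12.4 at 23.9 CPM (4.80 next), and low for sncb at 50.5 CPM (56.4 next). In replicate 4, lcor was high at 65.8 CPM, with 36.5 next. Replicate 3 thus accounts for 5 of the 8. The cause was not tested.

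Synthetic spike-in sequences, 92 features that no comparison used, had more than 3 counts in 4 libraries. They had 6 counts in amacrine and horizontal replicate 1, 4 in amacrine and horizontal replicate 4, 4 in retinal ganglion replicate 2 and 5 in progenitor replicate 2.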

How the results depend on the processing

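The 66 genes kept their places when libraries were scaled another way, except bcor, which was lost under all 3 scalings: 65 met the rule with TMM-scaled totals, with DESeq2 size factors and with totals free of mitochondrial genes. In all, 98, 98 and 72 genes met it there. A minimum mean of 1 or 10 CPM gave 68 and 64. Leaving out 1 library gave 66 to 135 genes, with 135 without amacrine and horizontal replicate 1 and 101 without replicate 3; the rule then compares fewer libraries. Among the other 3 populations, leaving out 1 library gave 6 to 8 genes called for photoreceptors against retinal ganglion cells (7 as reported), 6 to 8 against progenitors (7) and 5 to 9 for retinal ganglion cells against progenitors (8), with 5 without retinal ganglion replicate 5 and 5 without progenitor replicate 3. With only the 2 populations in the fit, 4 were called between photoreceptors and progenitors. The DESeq2 Wald test called 10, 12 and 19 in the 3 comparisons. Shares over all genes are not given for the alternative fits in this section. Of 483 alternative values for single genes, 430 stayed on the same side of the threshold, 53 no longer passed and 0 reversed. The list genes counted here include the 6 that met the rule, whose difference the rule fixed. In the transcription factor list, 5, 28 and 24 genes were higher in the 3 comparisons with those 6, and 1, 22 and 18 without. List genes numbered 6 against retinal ganglion cells, and 24 by the Wald test. Against photoreceptors list genes numbered 44 (36 to 61) and against progenitors 37 (30 to 50). Without 1 amacrine and horizontal library they numbered 6 to 9, 36 to 49 and 30 to 43. The causes of these shifts were not tested. With a replicate block, 7, 9 and 11 of the 66 were called in the 3 comparisons, and 9, 40 and 39 list genes. Same-numbered libraries deviated together in 2 of 30 pairs (r over 0.1). The r ran from -0.07 to 0.12 and was mostly above 0. The main fits did not use the numbers as pairs. Whether same-numbered libraries share a pool of retinas is not stated, and these r values cannot decide it. Depth limits genes at a few counts, such as si:ch211-276i12.4, and genes at 0 in progenitors. The motif description was not run.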
